A study of Mus musculus with 24 samples.

Results

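The clustered replication-dependent histone genes followed here are those whose symbols name the linker histones *H1f1* to *H1f6* or the numbered H2A, H2B, H3 and H4 gene copies, and that have an array row annotated to 1 gene only. This gave 27 genes with 1 row each, out of 19938 genes with such a row: 5 for H1, 4 for H2A, 9 for H2B, 3 for H3 and 6 for H4. RNA was measured in the left lung lobe of male C57Bl/6N Tac mice at postnatal day (PND) 0, 3, 10 and 42, in *Scnn1b*-Tg mice and WT littermates, with n = 3 arrays in each of the 8 groups of age and genotype. The transgene adds the beta subunit of the epithelial sodium channel under the club cell promoter of *Scgb1a1*, so it acts in an airway cell while the histone RNA of the whole lobe was read. Each array holds pooled RNA by the methods. The labels list 2 animals for 23 arrays and 1 animal for *Scnn1b*-Tg PND 42 replicate 3. The p values therefore measure the spread between these pools.

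In dividing cells, histones for the new chromatin are made from many gene copies that stand together in clusters and are read during S phase. Their RNA ends in a stem-loop held by the protein SLBP in place of a poly(A) tail, and it is degraded when DNA synthesis stops, so it is used as a sign of ongoing DNA synthesis. The postnatal mouse lung grows and forms alveoli in the weeks after birth. A few copies, among them *H1f2*, *H2bc4* and *H2bc21*, are also known to give polyadenylated RNA in cells that have left the cycle, and *H1f6*, *H2ac1* and *H2bc1* are known as testis histones.

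Of the 27 genes, 23 lie on chromosome 13 and 4 on chromosome 3 (RefSeq, GRCm38.p6). On chromosome 13 they form a block of 18 genes between positions 23531044 and 23934913 and a block of 5 genes (*H2bc14*, *H2bc22*, *H2ac15*, *H1f5* and *H4c9*) between 21722044 and 22041362. On chromosome 3, *H2bc21*, *H3c15*, *H4c14* and *H2bc18* lie between 96221072 and 96270192. The gene models of 24 members span 375 to 903 bases, and those of *H2bc21*, *H2bc4* and *H2bc22* span 2667, 8282 and 14079 bases.

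The stretches of 150 bases before the RefSeq start of 6 members are printed because these genes hold the largest changes described below, except *H1f2*, which is shown as a gene of the same block whose level did not pass the test in any interval. Coordinates on GRCm38.p6 are chr13:23763518-23763667 for *H1f1*, chr13:23750938-23751087 for *H2ac4*, chr13:21721894-21722043 for *H2bc14*, chr13:23746584-23746733 for *H2bc3* and chr13:23738657-23738806 for *H1f2*, all on the plus strand, and chr13:23551669-23551818 on the minus strand for *H4c6*. Each runs 5′ to 3′ along the gene, and capitals mark a match, on either strand, to the TATA box TATAAA, the CCAAT box CCAAT, the octamer ATTTGCAT or the H1 box AAACACA.
H1f1: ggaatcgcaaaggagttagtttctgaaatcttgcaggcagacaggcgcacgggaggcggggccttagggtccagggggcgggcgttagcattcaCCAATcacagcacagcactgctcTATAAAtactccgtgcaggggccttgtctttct
H2ac4: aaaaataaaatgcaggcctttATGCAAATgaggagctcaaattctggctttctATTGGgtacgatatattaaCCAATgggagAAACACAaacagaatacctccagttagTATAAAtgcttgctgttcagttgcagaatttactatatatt
H2bc14: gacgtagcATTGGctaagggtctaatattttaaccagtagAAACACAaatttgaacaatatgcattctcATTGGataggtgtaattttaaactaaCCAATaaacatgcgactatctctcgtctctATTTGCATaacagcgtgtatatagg
H2bc3: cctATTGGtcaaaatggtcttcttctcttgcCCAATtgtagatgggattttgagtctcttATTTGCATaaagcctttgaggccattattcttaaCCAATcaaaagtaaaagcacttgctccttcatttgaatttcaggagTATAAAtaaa
H4c6: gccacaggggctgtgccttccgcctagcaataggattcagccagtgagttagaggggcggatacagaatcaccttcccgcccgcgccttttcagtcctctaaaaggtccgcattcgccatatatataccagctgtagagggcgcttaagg
H1f2: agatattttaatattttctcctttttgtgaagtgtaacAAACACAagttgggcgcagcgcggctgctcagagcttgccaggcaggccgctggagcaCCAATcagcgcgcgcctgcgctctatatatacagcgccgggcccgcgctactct

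A RefSeq promoter window of 300 bases (250 before and 50 after the start) was at hand for 23 of the 27 genes. In these windows CCAAT stood in 20 of 23, against 37.4% of all 32851 promoters of the same length, and TATAAA in 15 of 23, against 13.6%. Matches on either strand and at any place in the window were counted. TATAAA stood on the gene strand 20 to 40 bases before the start in 5 members. The octamer stood in 8 of 23, against 1.74% of all promoters, and its holders were 3 of 4 H2A genes and 5 of 7 H2B genes. AAACACA stood in 8 of 23, against 7.18%, and 4 of 5 H1 genes held it. No match to one motif overlapped a match to another in a member window. *H1f2* holds CCAAT and AAACACA, as *H1f5* does, while *H4c6* has no match in the stretch printed above. Such matches describe letters and not bound sites. Some copies share a promoter region, since *H2ac8* and *H2bc8* start 179 bases apart on opposite strands and *H2bc1* and *H2ac1* start 280 bases apart. The windows of each pair overlap, so the octamer of a pair is the same site counted for both genes. The same holds for the AAACACA of *H2bc1* and *H2ac1*, and for the CCAAT sites and a TATAAA site of each pair.

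Values are log2 array levels as deposited, after normalization of all arrays by the authors. A level is read only against the same gene in other groups, never against another gene. The array medians lay between 4.79 and 5.0. *Scnn1b* itself was at 9.62 to 10.94 in the 12 *Scnn1b*-Tg arrays and at 6.37 to 8.22 in the 12 WT arrays, so every array was on the side of its label. The 12 markers of lung cells were present throughout (mean level 9.63 to 10.34 over the arrays), whereas the mean of 8 germ cell markers lay between 3.81 and 4.31 over the arrays. A change is called where limma's p, adjusted by Benjamini-Hochberg over 21789 rows, does not exceed 0.05 and the difference reaches 2-fold, and "rose" and "fell" are used for called changes only.

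Between PND 0 and PND 3, 16 of the 27 histone genes rose in WT lungs and 0 fell, against 1.96% of all tested rows called higher and 7.79% called lower. The median change of the 27 genes was 1.13 on the log2 scale, against 0.064 over all rows, and 26 of 27 changes were positive. The genes that rose were 5 of 6 for H4, 6 of 9 for H2B, 3 of 5 for H1 and 2 of 4 for H2A, while 0 of 3 H3 genes were called (limma, 3 at an unadjusted p under 0.05).

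*H4c6*, a copy of the H4 core histone, was at 7.39, 7.19 and 7.10 in the WT arrays of PND 0 and at 10.07, 9.12 and 10.63 in those of PND 3. The groups did not overlap, and the lowest PND 3 array was still far above every newborn array. The change was 2.71 (SE 0.36, limma Benjamini-Hochberg adjusted p = 3.39e-06). *H1f1*, a linker histone gene, was at 7.0, 6.99 and 7.36 at PND 0 and at 9.94, 8.84 and 10.61 at PND 3 in WT. It rose by 2.68 (SE 0.32, limma Benjamini-Hochberg adjusted p = 1.02e-06). Both genes thus shared the order of the PND 3 arrays, with replicate 2 lowest and replicate 3 highest.

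Among the H2B copies, *H2bc14* was at 6.08, 5.73 and 6.12 in newborn WT lungs and at 8.79, 7.61 and 9.45 at PND 3, a change of 2.64 (SE 0.30, limma Benjamini-Hochberg adjusted p = 5.37e-07). *H2bc3* was at 6.10, 5.91 and 5.91 at PND 0 and at 8.79, 7.34 and 9.58 at PND 3, a change of 2.60 (SE 0.37, limma Benjamini-Hochberg adjusted p = 7.52e-06). These copies lie in different blocks of chromosome 13, and replicate 2 was again the lowest PND 3 array in both. Of the H2A copies *H2ac4* rose most, from 6.91, 6.36 and 6.50 to 9.15, 7.35 and 9.37 (2.03, SE 0.41, limma Benjamini-Hochberg adjusted p = 0.000347). The linker gene *H1f5* rose by 2.00, *H2bc18* by 1.98 and *H4c14* by 1.94, with *H2bc18* and *H4c14* on chromosome 3, so that each of the 3 blocks held called genes (11 of 18, 3 of 5 and 2 of 4).

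**Figure D1:**
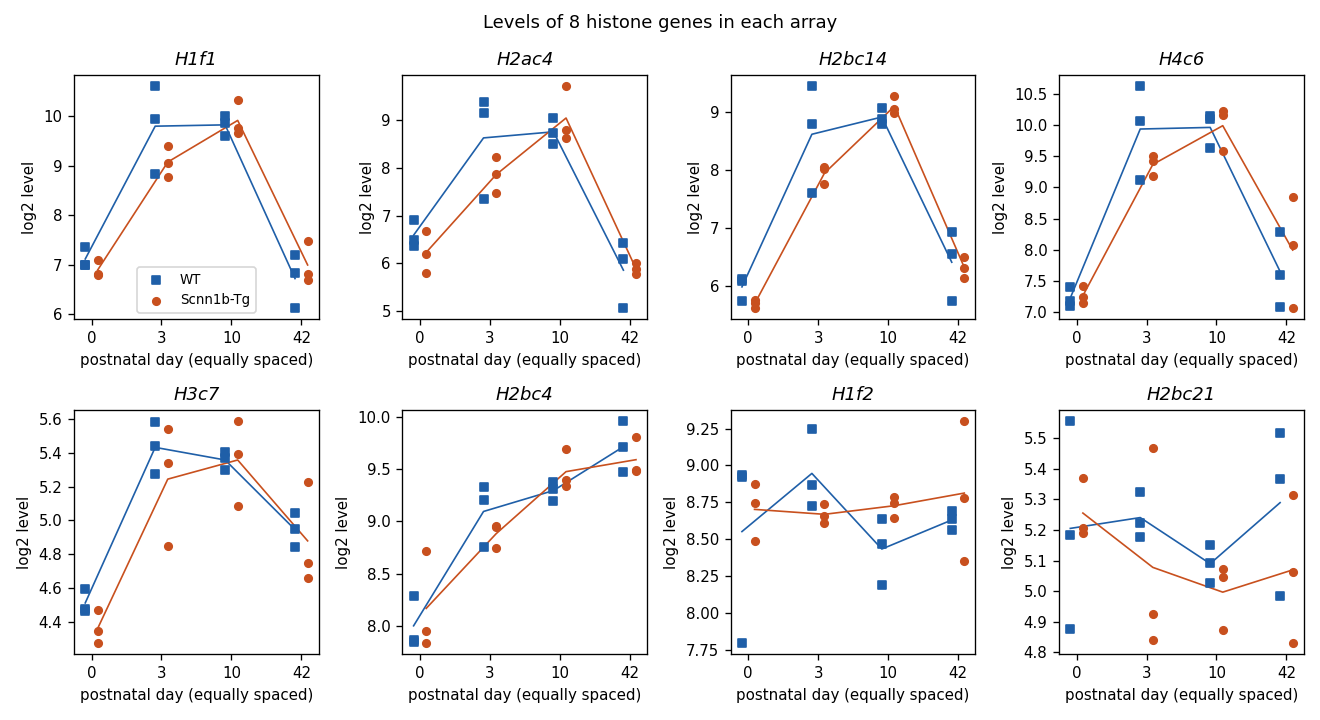
Log2 level (y axis, a scale of its own in each panel) of 8 histone genes in each array against postnatal day (x axis, equally spaced), with squares for WT, circles for *Scnn1b*-Tg and lines through the means of 3 arrays. *H1f1*, *H2ac4*, *H2bc14* and *H4c6* are high at PND 3 and 10 and low at PND 0 and 42, while *H2bc4* stays high at PND 42 and *H1f2* and *H2bc21* have no called change.

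In *Scnn1b*-Tg lungs 12 of 27 genes were called higher between PND 0 and PND 3 and 0 lower, against 2.26% and 8% of all rows, with a median change of 0.88 against 0.066 over all rows. All 12 were also called in WT lungs, and *H1f3*, *H2bc4*, *H2bc8* and *H2bc9* were called in WT alone. *H2bc14* rose by 2.26 (SE 0.30, limma Benjamini-Hochberg adjusted p = 3.2e-06), from 5.75, 5.69 and 5.61 to 7.76, 8.02 and 8.06. *H1f1* rose by 2.17 and *H4c6* by 2.11. The difference of the intervals between genotypes was called for 0 of 27 genes (limma, 3 genes at an unadjusted p under 0.05, lowest adjusted p = 0.998), against 0% of all rows, so the 4 genes called in WT alone are not shown to differ between genotypes.

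The genes that missed the call did so in different ways. *H3c7* was at 4.47, 4.48 and 4.59 in newborn WT lungs and at 5.27, 5.44 and 5.58 at PND 3, without overlap, and its change of 0.92 (SE 0.16, limma Benjamini-Hochberg adjusted p = 7.35e-05) stayed under 2-fold. The other H3 copies had changes of 0.62 (*H3c4*) and 0.45 (*H3c15*). The testis histone genes *H2bc1* and *H2ac1* had changes of 0.89 and 0.87 in WT with adjusted p of 0.000271 and 0.00261 (from limma with Benjamini-Hochberg adjustment), also under 2-fold, while germ cell markers were called for 0 of 8 genes (limma, 3 at an unadjusted p under 0.05). *H1f6*, the other testis member, was at 3.50 to 3.82 in the WT arrays of PND 0 and 3 and was the only member not above a level of 5 in any group. The newborn WT means of *H2bc1* (4.16), *H2ac1* (4.25), *H3c15* (4.38) and *H3c7* (4.51) also lay under every array median.

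Most H3 genes are read by rows that name several copies at once and so were not members. There were 26 rows that name several genes with at least 1 clustered histone gene among them, and 17 of these named such genes only. All 26 were tested in a separate fit of all 35556 rows, with p adjusted over all of these rows. The share of rows called in that fit is not given. Between PND 0 and PND 3, 21 of the 26 were called higher in WT (median change 1.47) and 17 in *Scnn1b*-Tg (median 1.05), with 0 lower. Among the 10 that hold H3 copies, 8 were called higher in each genotype. These rows overlap in their genes and are not independent of each other.

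Some genes of DNA synthesis and division also rose between PND 0 and PND 3. Of 31 measured genes of S phase, 10 were called higher in WT and 0 lower (median change 0.75), among them *Prim1*, the DNA primase subunit (2.06), and *Tyms*, thymidylate synthase (1.92). Of 21 mitosis genes 6 were called higher, among them the kinase gene *Cdk1* (1.14). In *Scnn1b*-Tg lungs 4 S phase genes and 2 mitosis genes were called higher. Small nucleolar RNA genes, which also give short RNA without a poly(A) tail, are a list chosen after their values were seen, and 20 of 51 were called higher and 2 lower in WT (median 0.89), and 23 and 3 in *Scnn1b*-Tg. Their part in the histone result was not tested. Of 7 measured erythroid genes 0 were called in either genotype over this interval (limma, 3 at an unadjusted p under 0.05 in each). Of the 12 lung cell markers, *Abca3* of alveolar type II cells and *Cdh5* of endothelial cells fell over this interval in both genotypes (by 1.56 and 1.48 in WT and by 1.38 and 1.23 in *Scnn1b*-Tg). The other type II markers were not called and did not share 1 direction. *Sftpc* had changes of 0.50 in WT and 0.70 in *Scnn1b*-Tg, *Sftpb* of -0.44 and -0.15 and *Sftpa1* of -0.32 and -0.08. The part of these markers in the histone result was not tested. In whole-lobe RNA, a change in the number of cells that make histone RNA and a change in the RNA per cell cannot be told apart.

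Few of the factors that make and process histone RNA were called. Of 15 measured processing factors 0 were called higher between PND 0 and PND 3 in WT, and *Upf1*, an RNA helicase known to act in histone RNA decay, fell by 1.17 (limma Benjamini-Hochberg adjusted p = 5.67e-06). *Slbp*, the stem-loop binding protein, had a change of 0.31 (adjusted p = 0.122) and *Npat*, the activator at the histone locus body, of -0.60 (adjusted p = 0.00195, under 2-fold), both from limma with Benjamini-Hochberg adjustment. Of 16 histone chaperones, *Asf1b* and *Chaf1b*, which act in replication-coupled assembly, rose by 1.61 and 1.15, and *Atrx*, a chromatin remodeller that acts outside replication, fell by 1.54. Among 15 measured replication-independent histones, *Cenpa* (centromeric H3) and *H2az1* rose by 1.26 and 1.12.

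Between PND 3 and PND 10 the histone genes showed no called change in WT lungs. Of 27 genes 0 were called either way (limma, 2 at an unadjusted p under 0.05), against 1.05% of all rows higher and 0.239% lower, and the median change was 0.047. The fitted intervals of single genes reached from -1.01 to 1.08 at their widest, so they include a 2-fold change for some members. The median depends on the PND 3 arrays, since without replicate 2 it was -0.21 and without replicate 3 it was 0.32.

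In *Scnn1b*-Tg lungs 25 of 27 changes over the same interval were positive, with a median of 0.50 against -0.010 over all rows, and 1 gene was called, against 0.817% of all rows. The lowest adjusted p was that of *H3c15* (0.0252, limma with Benjamini-Hochberg adjustment), whose change stayed under 2-fold. *H3c15* was at 4.68 to 4.76 at PND 3 and at 5.35 to 5.54 at PND 10. *H2bc14* was at 7.76, 8.02 and 8.06 at PND 3 and at 8.98, 9.04 and 9.28 at PND 10. It rose by 1.16 (SE 0.30, limma Benjamini-Hochberg adjusted p = 0.0355), and the call was lost when any 1 of the 6 arrays compared was left out. The H2B copy *H2bc3* went from 7.52, 7.63 and 7.63 to 8.45, 8.87 and 9.03 without overlap, a change of 1.19 (adjusted p = 0.0855), and *H2ac4* had a change of 1.18 (adjusted p = 0.127), both from limma with Benjamini-Hochberg adjustment and not called. Of 21 mitosis genes, 5 were called higher in these lungs (*Mki67*, *Top2a*, *Ccnb2*, *Aurka* and *Prc1*, by 1.02 to 1.39). Their mean was 7.16 in PND 10 replicate 3 against 6.39 and 6.34 in replicates 1 and 2, and without replicate 3 only *Aurka* was called. Of 31 S phase genes 0 were called (limma, 17 at an unadjusted p under 0.05), with 30 positive. Small nucleolar RNA genes had the opposite sign, with 47 of 51 changes negative and a median of -0.54.

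**Figure D2:**
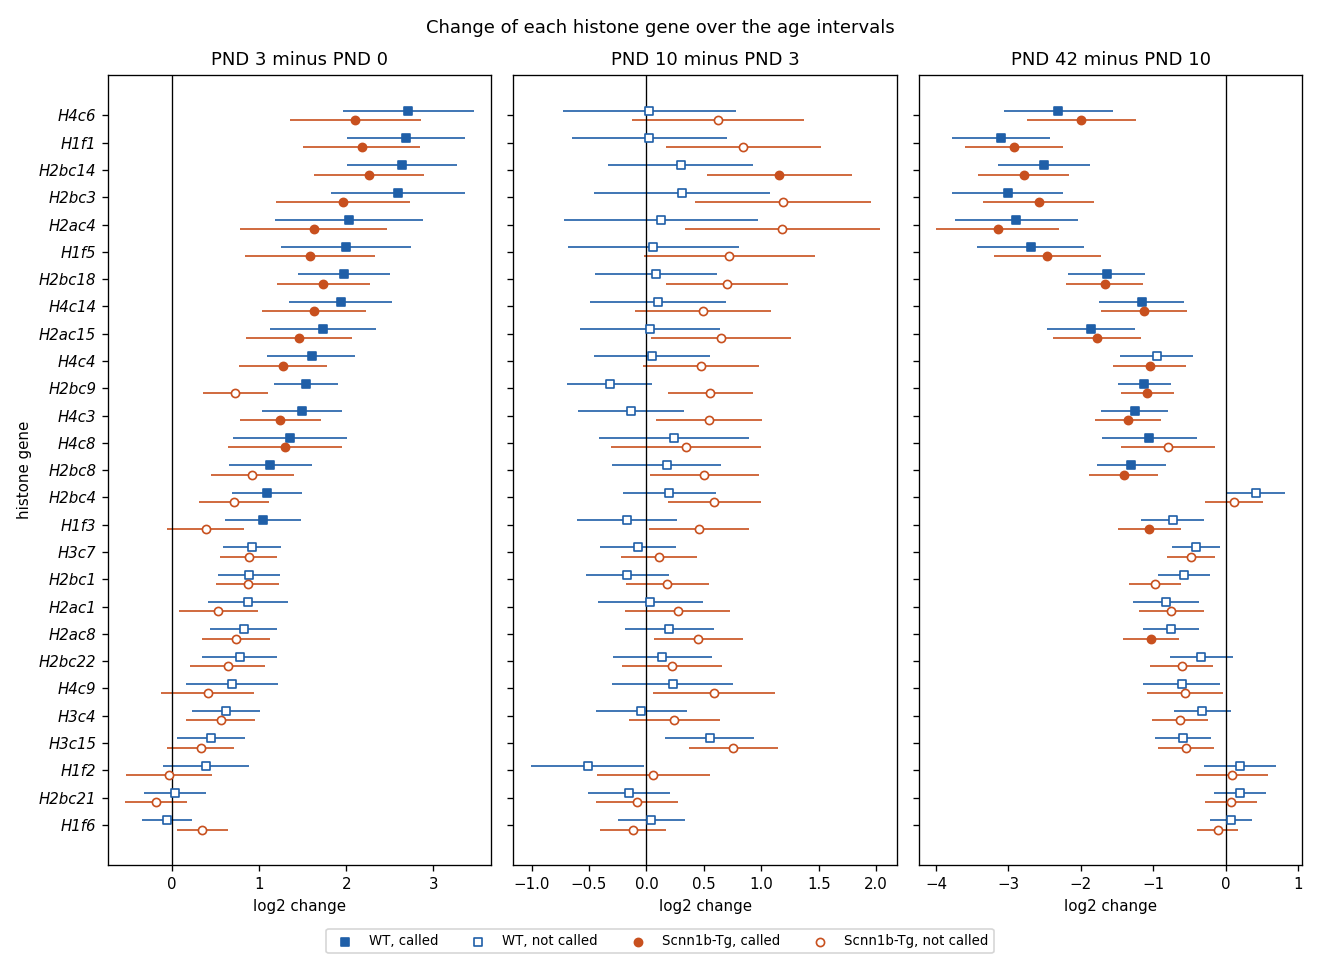
Fitted log2 change (x axis, a range of its own in each panel) of each of the 27 histone genes (y axis, ordered by the WT change from PND 0 to 3) over 3 age intervals, with 95% intervals from limma, squares for WT and circles for *Scnn1b*-Tg. Filled symbols are called changes: 16 in WT and 12 in *Scnn1b*-Tg in the first panel, 0 and 1 in the second, 13 and 15 in the last.

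Between PND 10 and PND 42, 13 of the 27 histone genes fell in WT lungs and 0 rose, against 3.84% and 1.7% of all rows, and the median change was -0.95 against -0.027 over all rows. In *Scnn1b*-Tg 15 fell and 0 rose, against 3.38% and 1.79% of all rows, and the median was -1.05. The genotypes shared 12 of these genes, *H4c8* was called in WT alone and *H1f3*, *H2ac8* and *H4c4* in *Scnn1b*-Tg alone, and the difference of the intervals was called for 0 of 27 genes (limma, 0 at an unadjusted p under 0.05), against 0.225% of all rows. All 13 WT genes were among the 16 that had risen after birth.

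The 6 genes with the largest rise after birth in WT (*H4c6*, *H1f1*, *H2bc14*, *H2bc3*, *H2ac4* and *H1f5*) were also the 6 with the largest fall. *H1f1* was at 9.61, 9.87 and 10.00 in the WT arrays of PND 10 and at 6.84, 6.12 and 7.20 in those of PND 42. It fell by 3.11 (SE 0.32, limma Benjamini-Hochberg adjusted p = 4.56e-07), back to the range of newborn lungs or under it. *H2bc3* was at 8.56, 8.93 and 9.15 at PND 10 and at 5.60, 5.71 and 6.30 at PND 42, and it fell by 3.01 (SE 0.37, limma Benjamini-Hochberg adjusted p = 3.12e-06). *H2ac4* was at 8.49, 8.72 and 9.04 at PND 10 and at 6.09, 5.06 and 6.43 at PND 42. Its fall was the largest of all members in *Scnn1b*-Tg lungs, where the arrays went from 8.62, 8.79 and 9.71 to 5.89, 5.78 and 6.00 (-3.15, SE 0.41, limma Benjamini-Hochberg adjusted p = 6.18e-06).

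The other large falls in WT were those of *H1f5* (-2.70), *H2bc14* (-2.51) and *H4c6* (-2.31). *H4c6* ended at 7.59, 7.08 and 8.28 in WT and at 7.06, 8.08 and 8.85 in *Scnn1b*-Tg, so that the adult arrays of a genotype spread over more than 1 log2 unit. The H3 members were called for 0 of 3 genes in either genotype (limma, 2 in WT and 3 in *Scnn1b*-Tg at an unadjusted p under 0.05), with changes of -0.33 to -0.63. Of the 10 shared rows that hold H3 copies, 8 were called lower in each genotype, with medians of -1.70 in WT and -1.35 in *Scnn1b*-Tg. Of all 26 shared rows, 16 were called lower in WT and 14 in *Scnn1b*-Tg, with 0 higher. These counts come from the separate fit, whose share of called rows is not given. Of 21 mitosis genes 18 were called lower in each genotype, with *Ccna2* at -2.79 in WT, and of 31 S phase genes 13 in WT and 20 in *Scnn1b*-Tg. Of 7 measured erythroid genes, *Alas2*, the first enzyme of heme synthesis in red cell precursors, and *Slc4a1*, the red cell anion exchanger, fell as well, by 1.32 and 2.17 in WT and by 1.60 and 1.89 in *Scnn1b*-Tg. The other erythroid genes were not called. Their changes were -0.39 (*Rhag*) to -0.0012 (*Klf1*) in WT and -0.37 (*Rhag*) to 0.21 (*Tfrc*) in *Scnn1b*-Tg. The part of the erythroid genes in the histone result was not tested. *Slbp* fell by 1.11 in *Scnn1b*-Tg (adjusted p = 2.64e-05) and had a change of -0.94 in WT (adjusted p = 0.000135, under 2-fold), both from limma with Benjamini-Hochberg adjustment. Of the chaperones *Asf1b*, *Chaf1b* and *Nasp*, the carrier of free histones, fell in both genotypes.

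Against the day of birth, the fitted level of all histone genes but *H2bc4* was within 2-fold in adult lungs of both genotypes. From PND 0 to PND 42, 1 of 27 genes was called higher and 0 lower in each genotype, against 1.71% and 9.73% of all rows in WT and 2.48% and 8.7% in *Scnn1b*-Tg. The median change was 0.15 in WT and 0.26 in *Scnn1b*-Tg. Without WT PND 42 replicate 2 the WT count was 2, and in *Scnn1b*-Tg it was 4 without PND 42 replicate 1 and 2 without PND 42 replicate 2 or PND 0 replicate 3. Of the 31 S phase genes 3 were called lower in adult than in newborn WT lungs and 1 in *Scnn1b*-Tg, with medians of -0.41 and -0.22. Of the 21 mitosis genes 8 were called lower in WT (median -0.79) and 0 in *Scnn1b*-Tg (median -0.45), where all 21 changes were negative. All 6 H4 genes had positive changes in both genotypes, with medians of 0.48 and 0.71, without a call. The nearest was *H4c14*, at 7.40, 7.38 and 7.62 in newborn and 8.52, 7.83 and 8.68 in adult WT lungs (0.88, adjusted p = 0.0131, under 2-fold) and with a change of 1.00 in *Scnn1b*-Tg (adjusted p = 0.00605), just under 2-fold as well, both from limma with Benjamini-Hochberg adjustment.

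The gene called higher in adults was *H2bc4* in both genotypes. In WT it was at 8.29, 7.85 and 7.87 at PND 0, at 9.33, 8.76 and 9.20 at PND 3, at 9.31, 9.38 and 9.19 at PND 10 and at 9.47, 9.96 and 9.71 at PND 42. The level was thus highest in the age group in which most members were low, and it rose by 1.71 from birth (SE 0.19, limma Benjamini-Hochberg adjusted p = 3.55e-07). In *Scnn1b*-Tg lungs it rose by 1.42 (SE 0.19, limma Benjamini-Hochberg adjusted p = 3.75e-06). *H1f2* was at 8.63, 8.56 and 8.69 in adult WT lungs and at 8.94, 7.80 and 8.92 in newborn ones, with overlap, and none of its changes was called in any interval. *H2bc21* lay between 4.83 and 5.56 in all 24 arrays, near the array medians of 4.79 to 5.0. None of the 3 members with a gene model over 1000 bases, *H2bc4*, *H2bc21* and *H2bc22*, was called lower between PND 10 and PND 42, where their changes were -0.34 to 0.42 in WT and -0.61 to 0.11 in *Scnn1b*-Tg. In *Scnn1b*-Tg, 1 of the 3 passed the adjusted p without reaching 2-fold. Among the 24 members with a shorter gene model, 13 were called lower in WT and 15 in *Scnn1b*-Tg, so many of these were not called either. A link to the length of the gene model was not tested.

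Over the 4 ages of WT lungs the highest mean fell at PND 10 for 17 members, at PND 3 for 7 and at PND 42 for 3 (*H2bc4*, *H2bc21* and *H1f6*). In *Scnn1b*-Tg lungs it fell at PND 10 for 23 members, at PND 42 for 2 and at PND 0 and PND 3 for 1 each. The lowest mean fell at PND 0 for 19 members in WT and 22 in *Scnn1b*-Tg. For members whose PND 3 and PND 10 means are close, this order is within the spread of the arrays.

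The study's main question was how *Scnn1b*-Tg lungs differ from WT lungs of the same age. For the histone genes 0 of 27 were called at PND 0, 3, 10 or 42 (limma), against 0.0138%, 0.0184%, 0.151% and 0.34% of all rows called in either direction, and 0, 6, 0 and 0 genes had an unadjusted p under 0.05. The median differences, *Scnn1b*-Tg minus WT, were -0.097, -0.30, 0.079 and 0.030. At PND 3, 26 of 27 genes had a negative difference, against 49.6% of all rows, and at PND 10, 20 had a positive one. The count at PND 10 depends on single arrays, since without *Scnn1b*-Tg PND 10 replicate 3 it was 13 of 27. Without WT PND 10 replicate 1 the median difference at PND 10 was -0.029. The histone genes share their arrays, so such counts of signs are not counts of independent results.

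*H2bc9* came nearest to a call at PND 3. It was at 6.36, 5.39 and 6.18 in WT and at 5.09, 5.09 and 5.10 in *Scnn1b*-Tg arrays, without overlap, as was the case for 5.91% of all rows in this direction. The difference was -0.89 (SE 0.18, limma Benjamini-Hochberg adjusted p = 0.0853), with a 95% interval from -1.26 to -0.52. *H2bc3* had the largest difference at -0.97 (95% interval -1.74 to -0.21, adjusted p = 0.573, from limma with Benjamini-Hochberg adjustment), followed by *H2ac4* at -0.77 and *H1f1* at -0.72. For each of these 3 genes WT replicate 2 lay within or under the range of the *Scnn1b*-Tg arrays.

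WT PND 3 replicate 2 stood apart from the other arrays of its group. In it 26 of 27 histone genes were below the group mean, and in replicate 3, 26 were above it. The mean over the 31 S phase genes was 6.16 in replicate 2 against 6.87 and 6.83 in replicates 1 and 3, and that over the 21 mitosis genes 5.54 against 6.55 and 6.77, while the mean of the small nucleolar RNA genes was 6.69 against 6.60 and 7.10. Without that array 4 histone genes were called lower in *Scnn1b*-Tg at PND 3, *H2bc9* (-1.18, adjusted p = 0.000421), *H2bc3* (-1.59, adjusted p = 0.0169), *H2bc14* (-1.18, adjusted p = 0.0242) and *H1f1* (-1.20, adjusted p = 0.0493), all from limma with Benjamini-Hochberg adjustment, and 0.353% of all rows were called. The median difference then was -0.58. Without WT replicate 3 in turn it was -0.13, so the size of the difference at PND 3 rests on which WT arrays are used.

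**Figure D3:**
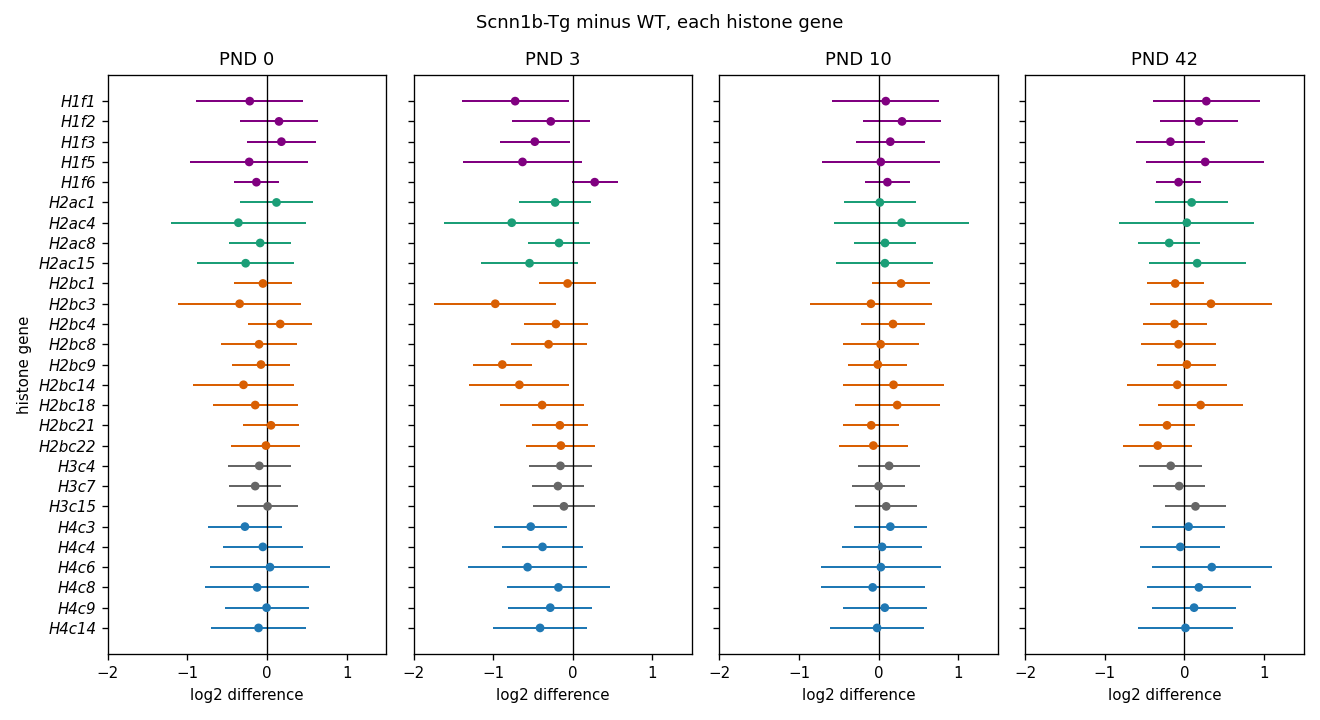
Fitted difference of *Scnn1b*-Tg minus WT (x axis, log2) for each of the 27 histone genes (y axis, coloured by the families H1, H2A, H2B, H3 and H4) at 4 ages, with 95% intervals from limma. At PND 3 the points of 26 genes lie left of 0, with a median of -0.30, and no gene is called at any age.

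The lists of cell division showed these signs too. At PND 3, 30 of 31 S phase genes and 21 of 21 mitosis genes had a negative difference, and at PND 10, 30 of 31 and 18 of 21 had a positive one, with 0 genes called at either age (limma, 16 and 13 genes at an unadjusted p under 0.05 at PND 3 and 4 and 0 at PND 10). *Scnn1b*-Tg PND 10 replicate 3 stood apart here, with S phase genes at a mean of 7.07 against 6.52 and 6.40 and all 31 S phase and 21 mitosis genes above the group mean. Without it 22 of 31 S phase and 9 of 21 mitosis genes had a positive difference at PND 10. The change from PND 3 to PND 10 was larger in *Scnn1b*-Tg for 26 of 27 histone genes, with a median difference of 0.39 and 0 called (limma, 3 at an unadjusted p under 0.05), against 0.00918% of all rows. *H2bc9* was nearest, at 0.88 (limma Benjamini-Hochberg adjusted p = 0.504), and without WT PND 3 replicate 2 it was called at 1.17. These counts share the PND 3 arrays with those given above.

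At PND 42 the arrays of a group spread more widely in the histone genes than in the genes of division. In *Scnn1b*-Tg PND 42 replicate 3, the array with 1 listed animal, 23 of 27 histone genes were above the group mean, and the mean over all 27 was 0.39 above it. WT PND 42 replicate 2 had 24 of 27 genes at or under its group mean and lay 0.27 under it. The S phase genes averaged 5.44, 5.52 and 5.43 in the *Scnn1b*-Tg replicates and 5.30, 5.34 and 5.53 in the WT replicates of that age. The small nucleolar RNA genes averaged 5.72, 6.25 and 7.28 in *Scnn1b*-Tg and 6.44, 5.60 and 6.36 in WT, so the array highest in histone genes was the highest in these RNAs too within *Scnn1b*-Tg, and WT replicate 2 was lowest in both. Their part in the spread of the histone genes was not tested.

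**Figure D4:**
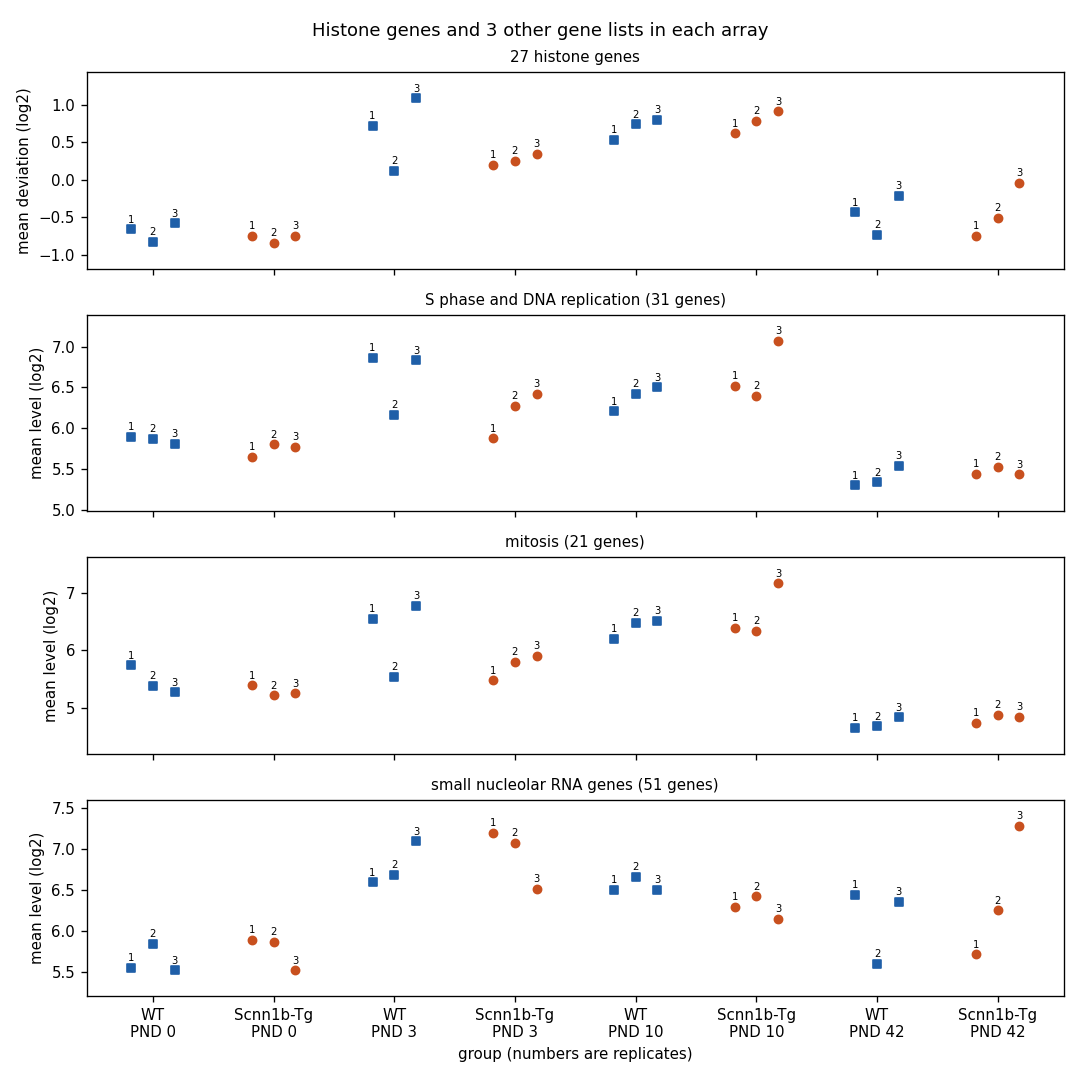
Each array's mean deviation of the 27 histone genes from their means over all arrays (top panel, log2) and the mean log2 level of the S phase, mitosis and small nucleolar RNA lists (lower panels), by group along the x axis, with replicate numbers at the points, squares for WT and circles for *Scnn1b*-Tg. WT PND 3 replicate 2 is low in the histone, S phase and mitosis panels, *Scnn1b*-Tg PND 10 replicate 3 is high in the S phase and mitosis panels, and *Scnn1b*-Tg PND 42 replicate 3 is high for histone and small nucleolar RNA genes and not for S phase genes.

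Histone H2A copies also stand in the plasma cell gene set of the study. Of 10 measured plasma and B cell markers, 3 were called higher between PND 10 and PND 42 in *Scnn1b*-Tg lungs, namely *Jchain* (1.96), *Ms4a1* (1.17) and *Cd79a* (1.13), and 0 in WT (limma, 3 at an unadjusted p under 0.05). In WT the changes of these genes were 1.16, 0.08 and 0.85. The difference of the intervals was not called for any of them (adjusted p = 0.797, 0.589 and 0.916, from limma with Benjamini-Hochberg adjustment). They are thus not shown to differ between genotypes. The markers not called in *Scnn1b*-Tg had changes there of -0.30 (*Sdc1*) to 0.68 (*Cd79b*), with *Mzb1* at 0.01 and *Prdm1* at -0.04. Over the same interval 3 of the 4 H2A members were called lower in *Scnn1b*-Tg and the remaining one had a negative change.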

How the data were processed

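RNA of the left lung lobe was read on 24 Affymetrix Mouse Gene 1.0 ST arrays, in 8 groups of genotype and age with 3 pools each, after labelling with the GeneChip WT and Ambion WT kits, which prime along whole transcripts. The authors used Partek 6.5, as the labels name it, to apply RMA with quantile normalization, and the deposited log2 values fill 35556 rows, of which 21789 name exactly 1 gene. No new normalization was applied. R 4.3.3 with limma 3.58.1 fitted 8 group means to these log2 values (lmFit and eBayes with 16 residual degrees of freedom). Contrasts gave the age intervals in each genotype, *Scnn1b*-Tg minus WT at each age, and the difference of intervals. p values were adjusted by Benjamini-Hochberg over the 21789 rows of a contrast, and a call needs an adjusted p not above 0.05 and a 2-fold difference. Rows that name several genes were tested in a separate fit of all 35556 rows, with p adjusted over all of these rows.

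A gene takes its row with the highest mean over the 24 arrays. All 27 histone genes have 1 row and matched RefSeq gene identifiers. Full statistics are given for some of the called members with the largest changes and no overlap between groups (up to 8 in a contrast). Where under 4 are called, they are given for some of those with the lowest p. Other members are named with their changes, some of them for a large change. Other named genes come from lists of histone RNA processing, histone chaperones, replication-independent histones, S phase, mitosis, erythroid, plasma and B, germ and lung cells. The members and lists were chosen with earlier results of these data known. The number of arrays limits the precision. The fit was tested on simulated data with independent noise in each row and array. That test does not cover shifts that many genes of an array share. Alternatives were 10 settings and leaving out each array.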

Additional observations from a re-analysis of the deposited data

How the results depend on the processing

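Most counts and medians kept their size under the 10 other settings and when any 1 of the 24 arrays was left out. The replicate numbers do not pair the arrays (median correlation of same-numbered deviations 0.026, lowest -0.26, 19 of 84 pairs over 0.1). With the replicate block, 2 genes in place of 1 were called in *Scnn1b*-Tg between PND 3 and 10, and no other count of called histone genes moved. That count was 0 without moderation of the variance, with a robust prior that follows intensity, with quantile normalization repeated and with the shared rows added, and 2 with no fold threshold.

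Adding the 17 rows that name clustered histone genes only, with all rows tested, enlarged the set. The calls then were 30 in WT and 24 in *Scnn1b*-Tg between PND 0 and 3, with a WT median of 1.46, 24 in each genotype between PND 10 and 42, and 2 in WT and 4 in *Scnn1b*-Tg between PND 0 and 42. The share of all rows called in that fit is not given. With no fold threshold, 22 genes passed in *Scnn1b*-Tg between PND 0 and 3, against 10772 of all 21789 rows. Between PND 0 and 42, 5 genes passed in WT, against 12269 of all 21789 rows. In *Scnn1b*-Tg 7 genes passed over that interval, and the count over all rows is not given. Between PND 0 and 42, repeated quantile normalization gave 3 calls in WT and 4 in *Scnn1b*-Tg, and subtracted array medians gave 2 in *Scnn1b*-Tg. Subtracting medians moved the median change of all rows between PND 0 and 3 in *Scnn1b*-Tg from 0.066 to 0.21, and histone changes there are read against it.

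Leaving out any 1 array gave 14 to 17 called genes and a median of 1.01 to 1.34 between PND 0 and 3 in WT, and 12 to 13 and 0.84 to 0.97 in *Scnn1b*-Tg. Between PND 3 and 10 it gave 0 called genes and -0.21 to 0.32 in WT, and 0 to 3 called genes and 0.49 to 0.57 in *Scnn1b*-Tg, with 3 without WT PND 3 replicate 2 and 2 without WT PND 3 replicate 3. Between PND 10 and 42 it gave 11 to 15 and -1.10 to -0.75 in WT, and 10 to 17 and -1.27 to -0.76 in *Scnn1b*-Tg. Between PND 0 and 42 it gave 1 to 2 and 0.14 to 0.27 in WT, and 1 to 4 and 0.16 to 0.34 in *Scnn1b*-Tg. For *Scnn1b*-Tg minus WT it gave 0 called genes and -0.17 to -0.034 at PND 0, 0 to 4 and -0.58 to -0.13 at PND 3, 0 and -0.029 to 0.16 at PND 10, and 0 and -0.17 to 0.14 at PND 42. For the difference of intervals it gave 0 called genes and -0.55 to -0.031 (PND 0 to 3), 0 to 1 and 0.25 to 0.66 (PND 3 to 10), and 0 and -0.25 to 0.065 (PND 10 to 42). Of the single genes, the PND 42 difference of *H2bc22* turned to 0.00879 without WT PND 42 replicate 3, and that of *H4c6* lay between -0.082 without *Scnn1b*-Tg PND 42 replicate 3 and 0.81 without replicate 1. Neither was called. The cause of these shifts was not tested.

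The number of arrays is a limit, since 3 a group leave intervals of single genes wide. Pools whose size the labels and the methods give differently are another. Levels near background are a further limit, for *H1f6* at all ages and for some members at birth. In newborn WT lungs the means of *H2bc1* (4.16), *H2ac1* (4.25), *H2bc22* (4.26), *H3c15* (4.38), *H2bc9* (4.44) and *H3c7* (4.51) lay under every array median. The part of such low levels in changes under 2-fold was not tested. Whether rows annotated to 1 histone gene also read near-identical copies was not tested.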
